A study of Mus musculus with 4 samples.

Results

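The lysosomal digestion machinery of macrophages was examined as a group of 47 genes out of the 16403 genes listed in any library. The genes are named by their function, the rule that lists them uses no measured value, though earlier results of these data were known when it was drawn up, and they were matched to the deposited rows through their NCBI mouse gene IDs. They comprise 10 genes of cysteine cathepsins and legumain, 4 of aspartic and serine proteases, 8 of glycosidases, 7 of lipid-handling proteins, 5 of lysosomal membrane proteins and progranulin, and 13 of the V-type proton pump. All 47 were listed in every library.

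Peritoneal macrophages of C57BL/6 mice were drawn into the cavity with 4% thioglycolate for at least 4 days and left to adhere for 4 h. They were kept overnight in medium with 0.5% serum before any treatment, and their RNA was sequenced. Per the study's methods the mice were 6 to 8 weeks old. The groups were wild-type without treatment (nontreat), wild-type with IL-4 at 20 ng/mL for 6 h, TIF1a-KO nontreat, and TIF1a-KO with the same IL-4 treatment. TIF1a is another name for Trim24, and TIF1a-KO cells (genotype TIF1a-/-) came from mice whose loxP-flanked Trim24 alleles were deleted by Cre under the lysozyme M promoter, which is active in the myeloid lineage. The controls were wild-type littermates, and whether they carried Cre or the floxed allele is not given in the sources used here. Each group was 1 library, so no difference below has a replicate check. Every test of a pair of libraries compares those libraries and covers counting error only, and the number of mice behind each library is not stated.

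Lysosomes are acid compartments in which macrophages break down what they engulf and what they recycle from their own cytoplasm. Cathepsins cut proteins there, glycosidases trim sugar chains, and lipid hydrolases work together with small activator proteins. The V-type proton pump keeps the interior acid with a cytoplasmic part that splits ATP, called V1, and a membrane part that passes protons, called V0. Many of these genes are regulated together by the MiT/TFE family of transcription factors, TFEB among them, through a DNA element known as CLEAR, which is built around an E-box.

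The libraries held between 11026033 and 11250099 expected reads, so that 3 reads, taken as the lowest level that could be shown, were worth 0.267 to 0.272 CPM (reads scaled to the library total). All 7 macrophage markers were detected in every library. The markers of other cell types summed to at most 45.8 FPKM (expected reads divided by transcript length and library total) in any library, the highest sum being that of 5 fibroblast genes. Summed fibroblast markers were at 45.8 and 38.9 FPKM in wild-type nontreat and IL-4, and at 23.3 and 43.1 FPKM in TIF1a-KO macrophages. Trim24 had 2.55 (nontreat) and 1.48 FPKM (IL-4) in wild-type, and 0.06 and 0.14 FPKM in TIF1a-KO. The log2 ratios of wild-type libraries with and without IL-4 fell with transcript length (Spearman's rho of -0.36 across 10519 genes that averaged 1 FPKM or more, against -0.10 in TIF1a-KO). The log2 ratios of TIF1a-KO over wild-type with IL-4, which share the wild-type IL-4 library, rose with length (rho of 0.51). For the genes named, values after removal of this trend are given where they change a call.

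Lysosomal genes were among the most abundant transcripts of these cells. Their median level was 251 FPKM in wild-type nontreat, 276 in wild-type IL-4, 253 in TIF1a-KO nontreat and 244 FPKM in TIF1a-KO IL-4, beside a median between 4.86 and 5.12 FPKM over all listed genes. Of the 47, 35 averaged 100 FPKM or more, a level reached by 4.12% of all listed genes. In every library 6 of the 20 most abundant genes were members (Ctsd, Psap, Ctss, Ctsb, Lamp1 and Ctsz). Together the 47 genes took between 11.3% and 11.6% of all expected reads, and Ctsd, Psap and Ctsb alone took 6.35% to 7.01%. The 4 libraries therefore put nearly equal shares of their reads into this machinery. In bulk RNA fewer cells of a type and less RNA per cell cannot be told apart.

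The classes took unequal shares, and their shares moved in different directions with IL-4. The 13 proton pump genes took 0.796% of reads in wild-type nontreat and 1.12% in wild-type IL-4, and 0.813% and 1.09% in TIF1a-KO. Cysteine cathepsins and legumain went from 3.67% to 3.99% in wild-type and from 3.76% to 3.92% in TIF1a-KO. Aspartic and serine proteases were the class whose share was lower with IL-4 by the most reads in both genotypes, from 2.69% to 2.42% in wild-type and from 2.75% to 2.27% in TIF1a-KO. Lipid-handling genes, mostly Psap, took 2.73% and 2.60% in wild-type and 2.83% and 2.79% in TIF1a-KO. Glycosidases stayed between 0.444% and 0.477%, and membrane proteins with progranulin between 0.923% and 0.950%.

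**Figure D1:**
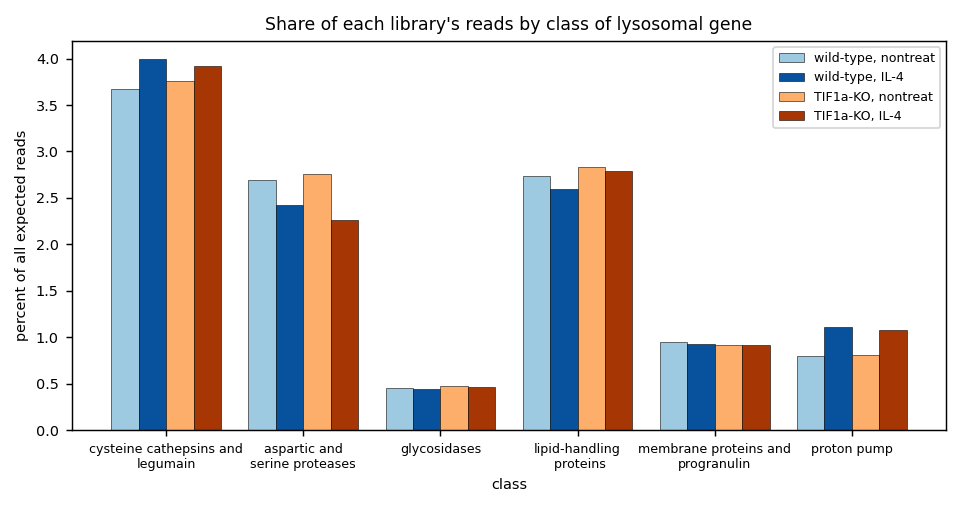
Percent of all expected reads in each library (y axis) taken by each class of lysosomal gene (x axis), with 1 bar per library and no replicates. The proton pump bars are higher with IL-4 in both genotypes (0.796% to 1.12% in wild-type, 0.813% to 1.09% in TIF1a-KO), while the aspartic and serine protease bars are lower.

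Levels differed far more between genes of a class than between libraries. Ctsd, the main aspartic protease of lysosomes, was the most abundant member, at 11712 FPKM in wild-type nontreat, 10349 in wild-type IL-4, 11982 in TIF1a-KO nontreat and 9700.1 FPKM in TIF1a-KO IL-4. It ranked 3 among all genes in 3 of the libraries and 4 in wild-type IL-4. Psap, the precursor of the saposins that present lipids to lysosomal enzymes, was at 9230.4, 8640.4, 9549 and 9322 FPKM in the same order. Ctss, a cysteine protease that trims the invariant chain of MHC class II, was at 5862, 6357, 5839 and 6140.0 FPKM. Ctsb, a cysteine protease of broad specificity, was at 4434, 4252, 4462 and 4184 FPKM. At the other end, Ctsf had 1.58 to 2.53 FPKM and Ctse, an aspartic protease found mainly outside lysosomes, had 0.81 to 1.3 FPKM. Ctse rested on 19 to 31 reads per library, and both were the only members with fewer than 100 reads in every library. The other 45 had at least 500 reads in each.

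**Figure D2:**
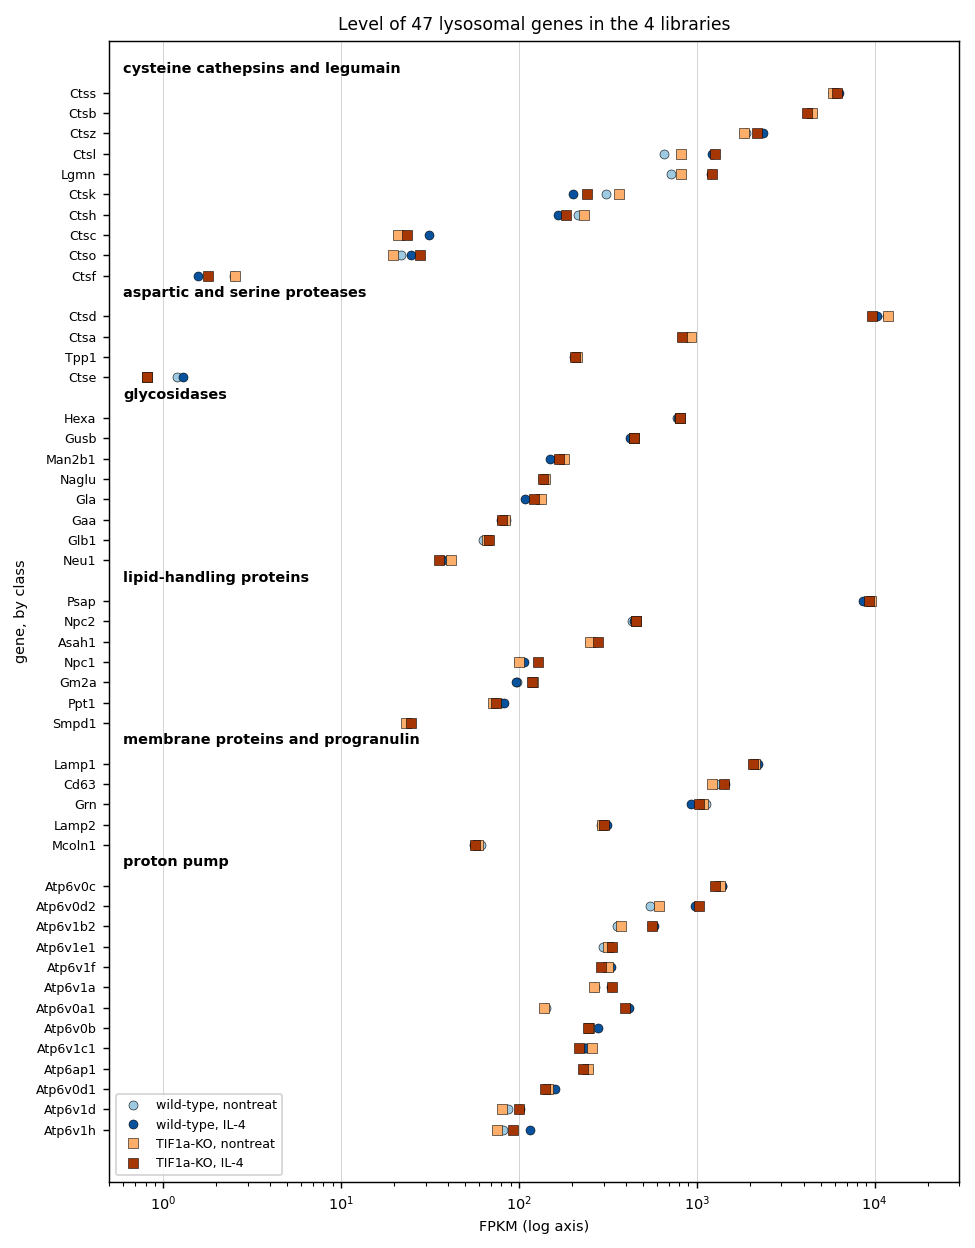
Level of each of the 47 genes (y axis, grouped by class and ordered by mean level) in FPKM on a log axis (x axis), with 1 point per library. Points of a gene mostly lie on top of each other, with Atp6v0a1, Ctsl, Lgmn, Atp6v0d2, Atp6v1b2 and Ctsk spread apart between nontreat and IL-4.

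The E-box of the CLEAR element was looked for in the promoters of the members, as a description of what they share beyond their function. It was chosen because it is known from lysosomal genes, so its share among the members is no independent evidence. RefSeq promoter windows on GRCm38.p6, from 250 bases before to 50 bases after a start, were given for 38 of the 47 genes (43 windows, since some genes have several starts). The palindrome CACGTG was present in 14 of the 43 windows (32.6%) and in 7.15% of all 32851 windows. Its extension TCACGTG, read on either strand, was present in 12 windows (27.9%, against 3.77%). GTCACGTG, a longer form that contains both, was present in 10 windows (23.3%, against 2.25%). The spaced palindrome TTCNNNNGAA, the form of site that STAT6 binds downstream of IL-4, was searched in addition. It was present in 1 window (2.33%, against 6.95%), that of Gm2a. All 32851 windows cover 27025 genes, many of them not listed in these libraries. They were not matched to the members in level or base composition. Sites with the longest form are shown, since they are the sequence that most members with an E-box have in common. GTCACGTG is in capitals between 10 flanking bases on each side, read 5′ to 3′ on the strand that carries it, and 1 site is shown for Ctsa, Ctsd and Mcoln1, which hold 2 each.
Atp6v0b, chr4:117887350-117887377, gene strand (-): gtgcgcggggGTCACGTGgggtcggcgc
Atp6v0d1, chr8:105566052-105566079, gene strand (-): ccctactgcgGTCACGTGagacgcggtg
Ctsa, chr2:164833749-164833776, gene strand (+): tgagcaaactGTCACGTGatgcagatgc
Ctsd, chr7:142387908-142387935, opposite strand (+): ccctcaacggGTCACGTGagacgcgggc
Gla, chrX:134601184-134601211, gene strand (-): tgagatctcgGTCACGTGagcaactctc
Glb1, chr9:114401018-114401045, gene strand (+): ctgcttctgaGTCACGTGgcctacagag
Lamp1, chr8:13159123-13159150, opposite strand (-): acgtgatgtgGTCACGTGccagtcggca
Lgmn, chr12:102439126-102439153, gene strand (-): tggaatgtctGTCACGTGgtccatttta
Mcoln1, chr8:3500436-3500463, gene strand (+): ggtcgcgcttGTCACGTGttcagttcag
Naglu, chr11:101070009-101070036, gene strand (+): caaccttcagGTCACGTGgcccgaggtc

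These 10 genes span 5 of the 6 classes. Measured to the capital farthest from the start, the sites of Atp6v0d1 and Ctsa lie 5 and 14 bases before the start, those of Lamp1, Atp6v0b, Glb1 and Lgmn 28, 38, 50 and 51 bases before it, and that of Gla 196 bases before it. The sites of Ctsa and Lgmn lie within the RefSeq span of the gene, upstream of an inner start, that of Atp6v0d1 reaches across the start, and the other 7 lie upstream of the gene.

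A small set of lysosomal genes was higher with IL-4 in wild-type macrophages, led by a subunit of the proton pump. Genes were called where the fold passed 1.5 and the adjusted p of a two-sided Fisher's exact test on reads was below 0.05. By this rule 5 of the 47 (10.6%) rose and 1 (2.13%) fell. Over all 15593 genes tested, 4.91% were called higher and 7.88% lower, and among the 5436 genes that averaged 10 FPKM or more (abundant genes from here on) 12.5% were called in either direction. The members were thus called about as often as abundant genes. The members that rose were Atp6v0a1, Ctsl, Atp6v0d2, Lgmn and Atp6v1b2, and the member that fell was Ctsk. The highest adjusted p among the 6 was 2.43e-87, for Ctsk. Most of the machinery stayed level, with 37 of the 47 genes (78.7%) within 1.25-fold, beside 67.2% of abundant genes. The median log2 ratio of the 47 was 0.03, beside 0.06 for abundant genes.

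In TIF1a-KO macrophages 4 of the 47 (8.51%) rose with IL-4 and 0 fell. The background there was 5.29% called higher and 4.03% called lower of 15738 genes, and 10.1% in either direction among abundant genes. The genes that rose were Atp6v0a1, Atp6v0d2, Ctsl and Lgmn. Atp6v1b2 and Ctsk were just under the fold threshold, with Atp6v1b2 1.496-fold higher and Ctsk 1.496-fold lower. Of the 47 genes 36 (76.6%) were within 1.25-fold, beside 74.8% of abundant genes, and the median log2 ratio was -0.01, beside 0.03. An unadjusted p under 0.05 was found for 35 members in wild-type and 32 in TIF1a-KO. By the adjusted p alone, without the fold rule, the numbers were 30 and 31. The share of all genes at these cutoffs was not counted, so these numbers do not set the members apart.

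**Figure D3:**
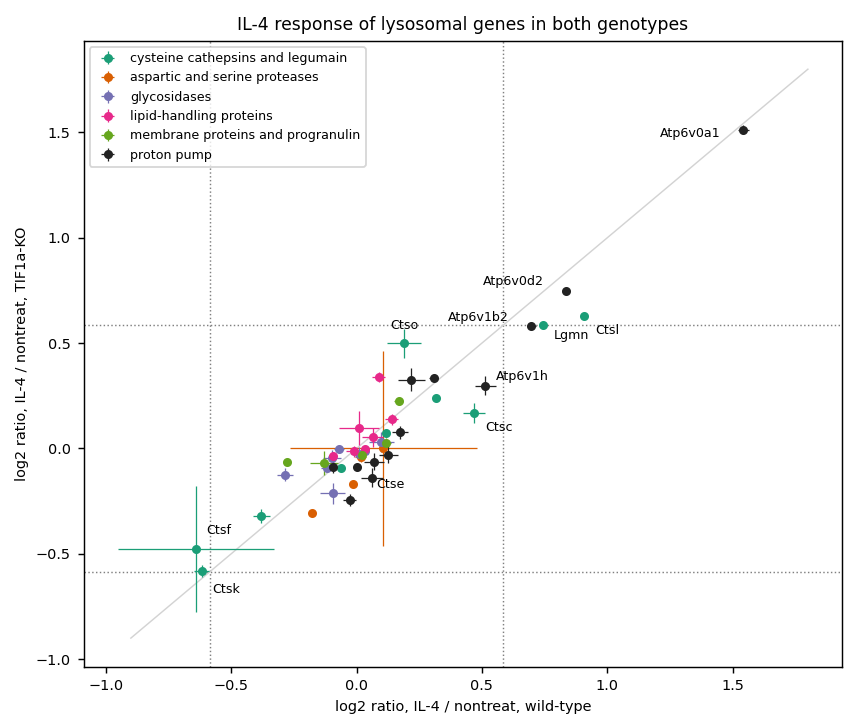
Log2 ratio of IL-4 over nontreat in wild-type (x axis) and in TIF1a-KO (y axis) for the 47 genes, coloured by class, with bars of 1 standard error from counting alone. Dotted lines mark a 1.5-fold change and the grey line marks equal responses. Atp6v0a1 lies apart at 1.54 and 1.51. Atp6v0d2, Ctsl, Lgmn and Atp6v1b2 lie between 0.70 and 0.91 in wild-type and between 0.58 and 0.75 in TIF1a-KO. Most genes lie close to 0.

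Among the V0 subunits, which form the membrane part of the pump, an a isoform and a d isoform rose. Atp6v0a1, an isoform of the large a subunit that carries protons across the membrane, was at 142 FPKM in wild-type nontreat, 415 in wild-type IL-4, 138 in TIF1a-KO nontreat and 395 FPKM in TIF1a-KO IL-4. Both IL-4 libraries were far above both untreated libraries. The rise was 2.91-fold in wild-type (95% counting interval, 2.83 to 2.997) and 2.85-fold in TIF1a-KO (2.77 to 2.94). Atp6v0d2, the d subunit isoform typical of macrophages and osteoclasts, was at 548, 978, 614 and 1031 FPKM in the same order. Again both IL-4 libraries lay above both untreated ones, by 1.78-fold in wild-type (1.75 to 1.82) and 1.68-fold in TIF1a-KO (1.65 to 1.71). Atp6v0c, which forms the rotating ring and was the most abundant pump gene, was at 1385, 1389, 1346 and 1267 FPKM, and its log2 ratios were 0.00 and -0.09. Atp6v0b, another ring subunit, and Atp6v0d1, the widely expressed d isoform, had log2 ratios between -0.06 and 0.13.

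Because isoforms of a subunit take the same place in the pump, their levels were also set against each other within each library, per length. The level of Atp6v0a1 was 0.805 times that of Tcirg1, the a3 isoform used by osteoclasts, in wild-type nontreat (95% counting interval, 0.776 to 0.834) and 2.47 times with IL-4 (2.40 to 2.55). In TIF1a-KO the ratios were 0.692 (0.668 to 0.717) and 2.21 (2.14 to 2.28). Tcirg1 was thus the more abundant of the pair in both untreated libraries and the less abundant in both IL-4 libraries. Tcirg1 itself was listed at 177, 168, 199.9 and 179 FPKM. The ratio of Atp6v0d2 to Atp6v0d1 was 3.62 (nontreat) and 6.15 (IL-4) in wild-type, and 4.20 and 7.37 in TIF1a-KO. The d2 isoform was therefore in excess in every library, and by more in the IL-4 libraries. Atp6v0a2, a further a isoform, was at 9.31 to 11.2 FPKM.

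**Figure D4:**
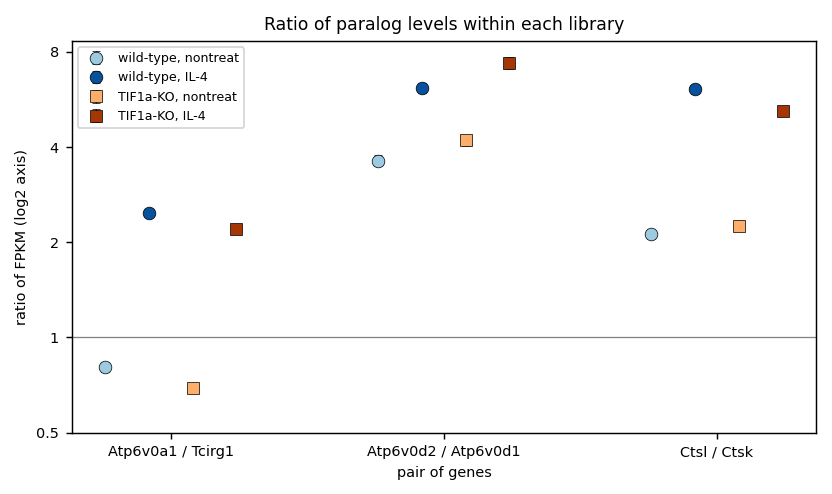
Ratio of FPKM between related genes within each library (y axis, log2 scale) for Atp6v0a1 over Tcirg1, Atp6v0d2 over Atp6v0d1 and Ctsl over Ctsk (x axis), with 95% intervals from counting that are mostly smaller than the points. Each ratio is higher in the IL-4 library of both genotypes, and Atp6v0a1 over Tcirg1 crosses 1, from 0.805 to 2.47 in wild-type and from 0.692 to 2.21 in TIF1a-KO.

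Among the V1 subunits, which split ATP, the response was smaller and graded. Atp6v1b2, the B subunit of the catalytic ring, was at 358, 579.5, 375 and 562 FPKM in the order used above. Its rise was 1.62-fold in wild-type (95% counting interval, 1.58 to 1.66). Atp6v1a, the subunit that binds and splits ATP, was at 267, 331, 265 and 335 FPKM, or 1.24-fold and 1.26-fold higher with IL-4. Atp6v1a was less abundant than Atp6v1b2 in every library, at a ratio of 0.748 (nontreat) and 0.571 (IL-4) in wild-type and 0.707 and 0.597 in TIF1a-KO. Atp6v1h, a subunit that regulates ATP splitting and, by mean FPKM, the least abundant of the 13 pump genes, was at 81.5, 116, 76.0 and 93.4 FPKM, with log2 ratios of 0.51 and 0.30. The stalk subunits Atp6v1c1, Atp6v1d, Atp6v1e1 and Atp6v1f had log2 ratios between -0.03 and 0.22 in wild-type and between -0.24 and 0.33 in TIF1a-KO. Atp6ap1, an accessory protein of pump assembly, had log2 ratios of -0.10 and -0.09. In all, 3 of the 13 pump genes rose in wild-type and 2 in TIF1a-KO, and none fell.

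Among the cysteine proteases, related enzymes moved in opposite directions with IL-4. Ctsl, an endopeptidase that processes other lysosomal enzymes and antigens, was at 654 FPKM in wild-type nontreat, 1227 in wild-type IL-4, 821 in TIF1a-KO nontreat and 1269.6 FPKM in TIF1a-KO IL-4. It was 1.88-fold higher with IL-4 in wild-type (95% counting interval, 1.85 to 1.90) and 1.55-fold higher in TIF1a-KO (1.52 to 1.57). The untreated libraries differed more from each other than the IL-4 libraries did. Lgmn, the asparaginyl endopeptidase that matures several cathepsins, was at 722, 1209, 815 and 1225 FPKM, a rise of 1.67-fold and 1.502-fold. Its call in TIF1a-KO was lost after removal of the length trend (log2 ratio 0.55).

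Ctsk, the collagen-degrading cathepsin known from osteoclasts, was at 309 FPKM in wild-type nontreat, 201 in wild-type IL-4, 364 in TIF1a-KO nontreat and 243 FPKM in TIF1a-KO IL-4. Both IL-4 libraries lay below both untreated libraries, with log2 ratios of -0.62 and -0.58. The wild-type value was close to the threshold and was -0.58 with TMM scaling of the libraries, which is not called. After removal of the length trend Ctsk was called in both genotypes (-0.72 and -0.62). The ratio of Ctsl to Ctsk was 2.12 (nontreat) and 6.09 (IL-4) in wild-type, and 2.26 and 5.22 in TIF1a-KO. Ctsh, an aminopeptidase, was at 217, 167, 232 and 186 FPKM, with log2 ratios of -0.38 and -0.32. Ctsz, a carboxypeptidase, was at 1893, 2355, 1849 and 2179.7 FPKM, with log2 ratios of 0.32 and 0.24.

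None of the remaining cysteine cathepsins was called with IL-4 in a pair of libraries before removal of the length trend. Ctss and Ctsb had log2 ratios between -0.09 and 0.12. Ctsc, which activates the serine proteases of granules, was at 22.6, 31.4, 21.1 and 23.7 FPKM, with log2 ratios of 0.47 and 0.17. Its listed transcripts averaged 7277 bases, the longest of the 47, and removal of the length trend moved the wild-type ratio to 0.86, past the fold threshold, and the TIF1a-KO ratio to 0.27. Ctso, another cysteine cathepsin, was at 21.8, 24.8, 19.7 and 27.8 FPKM, with log2 ratios of 0.19 and 0.50. Ctsf was at 2.52, 1.58, 2.53 and 1.79 FPKM, with log2 ratios of -0.64 and -0.48 whose adjusted p in wild-type was 0.0935 (Fisher's exact test). In all, 2 of the 10 cysteine protease genes rose in wild-type and 2 in TIF1a-KO, and 1 fell in wild-type.

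Of the other 24 genes none was called with IL-4 in either genotype. Ctsd had log2 ratios of -0.18 and -0.30, below 1.25-fold in both genotypes, but as the most abundant member it accounted for most of the lower read share of its class. Ctsa, the protective protein of the galactosidase and neuraminidase complex, was at 908, 899, 927 and 824 FPKM. Tpp1, a tripeptidyl peptidase, had log2 ratios of 0.02 and -0.04, and those of Ctse were 0.11 and 0.00 on counts too low to show a 1.5-fold difference.

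The 8 glycosidases had log2 ratios between -0.29 and 0.10 in wild-type and between -0.21 and 0.03 in TIF1a-KO. Hexa, the alpha subunit of hexosaminidase, was the most abundant, at 772, 789.6, 811 and 805 FPKM. Gusb, the beta-glucuronidase, was at 441, 420.3, 447 and 446 FPKM. Neu1, the sialidase that is held in a complex with Ctsa, was the least abundant, at 39.7, 37.2, 41.5 and 35.8 FPKM. In wild-type the lowest ratio was that of Gla, alpha-galactosidase A, which is deficient in Fabry disease, at -0.29 (-0.13 in TIF1a-KO), and in TIF1a-KO that of Neu1, at -0.21 (-0.09 in wild-type).

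The 7 lipid-handling genes had log2 ratios between -0.10 and 0.14 in wild-type and between -0.03 and 0.34 in TIF1a-KO. Npc2, which hands cholesterol to the membrane transporter Npc1, was at 434, 444, 457 and 456 FPKM. Npc1 itself was at 101, 107, 101 and 128 FPKM, with the TIF1a-KO IL-4 library above the other 3. Smpd1, acid sphingomyelinase, was the least abundant, at 24.3, 24.5, 23.2 and 24.8 FPKM. Among membrane proteins Lamp1, a main glycoprotein of the lysosomal membrane, was at 2174, 2206, 2123 and 2080.1 FPKM, and Cd63, a tetraspanin, at 1279.7, 1438, 1224 and 1429 FPKM. Mcoln1, the calcium channel of lysosomes, was the least abundant of its class, at 61.2, 55.9, 59.3 and 56.5 FPKM. Grn, progranulin, was at 1130.3, 933, 1081 and 1035 FPKM, with log2 ratios of -0.28 and -0.06.

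The 4 libraries were then fitted together, so that differences between genotypes in the IL-4 response enter as spread. In the additive edgeR quasi-likelihood fit, which has 1 residual degree of freedom and no fold threshold, 11 of the 47 genes rose with IL-4 and 2 fell at an adjusted p below 0.05, beside 12.0% called higher and 13.3% called lower of 11791 genes fitted. Of the 13 pump genes 6 rose and none fell in this fit. They were Atp6v0a1 (log2 change 1.54, adjusted p = 1.28e-08), Atp6v0d2 (0.80, adjusted p = 1.42e-05), Atp6v1b2 (0.65), Atp6v1h (0.42), Atp6v1a (0.33) and Atp6v1d (0.28, adjusted p = 0.0328). Of the 10 cysteine protease genes Ctsl (0.78, adjusted p = 5.30e-05), Lgmn (0.68), Ctso (0.36), Ctsc (0.33) and Ctsz (0.29) rose, and Ctsk (-0.59, adjusted p = 1.31e-04) and Ctsh (-0.34, adjusted p = 0.00864) fell. None of the 24 other genes was called in this fit. DESeq2 called 9 members for IL-4, without Atp6v1d, Ctso, Ctsc and Ctsz. The edgeR fit over all genes with a read called 8, without these and Ctsh. Limma called 12, without Ctsz. With the length trend as an offset the edgeR fit called 19 of the 47. The added genes were Npc1 (0.36) among those that rose and Ctsd (-0.28), Gla (-0.20), Grn (-0.19), Atp6v1c1 (-0.17) and Ctsf (-0.62) among those that fell. The share of all genes called was not counted for these alternative fits, so their counts do not set the members apart.

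Whether the response to IL-4 differed between the genotypes was tested as the difference of the log2 ratios, TIF1a-KO minus wild-type, against counting error. Where an adjusted p below 0.05 and a difference of more than 1.5-fold were required, 0 of the 47 genes were called, beside 1.89% of 16371 genes. By the adjusted p alone 21 of the 47 (44.7%) differed, beside 8.39% of all genes. Of these, 5 had the higher ratio in TIF1a-KO and 16 the lower. An unadjusted p under 0.05 was found for 27 members. Neither the split by direction nor the unadjusted share was counted over all genes, so they do not set the members apart. The median difference of the 47 was -0.04. Abundant genes had a median IL-4 log2 ratio of 0.06 in wild-type and 0.03 in TIF1a-KO. The members have more reads than most genes and hence a smaller counting error, and no spread between mice enters this test. The differences ran from -0.30 to 0.31. Ctsl had a difference of -0.28 (95% counting interval, -0.31 to -0.25), and its level in TIF1a-KO nontreat, 821 FPKM, lay above the 654 FPKM of wild-type nontreat (the difference was -0.34 after removal of the length trend). Ctsc had -0.30 (-0.42 to -0.17), which was -0.58 after removal of the length trend and still under 1.5-fold. Ctso had 0.31 (0.12 to 0.50), and 0.25 after removal. Grn had 0.21 (0.18 to 0.25) and 0.23 after removal, its wild-type IL-4 library being the lowest of the 4. Npc1 had 0.25 (0.18 to 0.32), which was 0.06 after removal of the length trend. Atp6v0a1 had -0.03 (-0.09 to 0.03), an interval that includes 0, and the value was -0.12 after removal of the length trend.

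The lysosomal genes of TIF1a-KO macrophages were close to their wild-type levels. Without IL-4, 0 of the 47 were called higher or lower in TIF1a-KO, beside 0.839% called higher and 0.742% called lower of 15623 genes and 1.07% in either direction among abundant genes. With IL-4, 0 were called in either direction, beside 3.05% higher and 0.764% lower of 15573 genes and 2.32% among abundant genes. At an unadjusted p under 0.05 in the same Fisher's exact tests, 27 of the 47 differed without IL-4 and 30 with IL-4. By the adjusted p alone, without the fold rule, 17 (36.2%) differed without IL-4 and 28 (59.6%) with IL-4. None of these numbers has a share of all genes beside it, so they do not set the members apart. In each treatment 45 of the 47 (95.7%) lay within 1.25-fold, beside 94.96% of abundant genes in nontreat and 85.6% in IL-4. The medians of the log2 ratios were 0.01 and 0.00, beside -0.02 and -0.03 for abundant genes. In the additive edgeR fit 0 were called for genotype, beside 1.29% higher and 0.373% lower of 11791 genes, and 4 had an unadjusted p under 0.05. For these 4, too, the share of all genes was not counted. Limma called Gm2a, and DESeq2 none, again without a share of all genes. Lyz2, the gene that carries the LysM-Cre insertion, had 11289 and 10811 FPKM in wild-type and 5193 and 4761 FPKM in TIF1a-KO, and its part in these comparisons was not tested.

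The largest ratios between genotypes, apart from Ctse with its few reads, were those of Ctsl, Gm2a, Ctsk, Atp6v1h and Ctsc, which were picked after their values were seen. Without IL-4, Ctsl had a log2 ratio of 0.33 of TIF1a-KO over wild-type, and with IL-4 of 0.05. Gm2a, the activator protein for GM2 ganglioside breakdown, was at 97.8 FPKM in wild-type nontreat, 97.0 in wild-type IL-4, 120.4 in TIF1a-KO nontreat and 119 FPKM in TIF1a-KO IL-4. Both TIF1a-KO libraries lay above both wild-type libraries, with log2 ratios of 0.30 in both treatments (additive edgeR fit, adjusted p = 0.107). After removal of the length trend the ratios were 0.30 in nontreat and 0.18 with IL-4. Ctsk had ratios of 0.24 and 0.27. Atp6v1h had -0.10 and -0.32. Ctsc had -0.10 and -0.40, and after removal of the length trend the latter was -0.74, past the fold threshold. With IL-4, 10 of the 13 pump genes were below 0, with a median of -0.07, beside -0.03 for abundant genes. After removal of the trend the medians were -0.03 and -0.02.

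**Figure D5:**
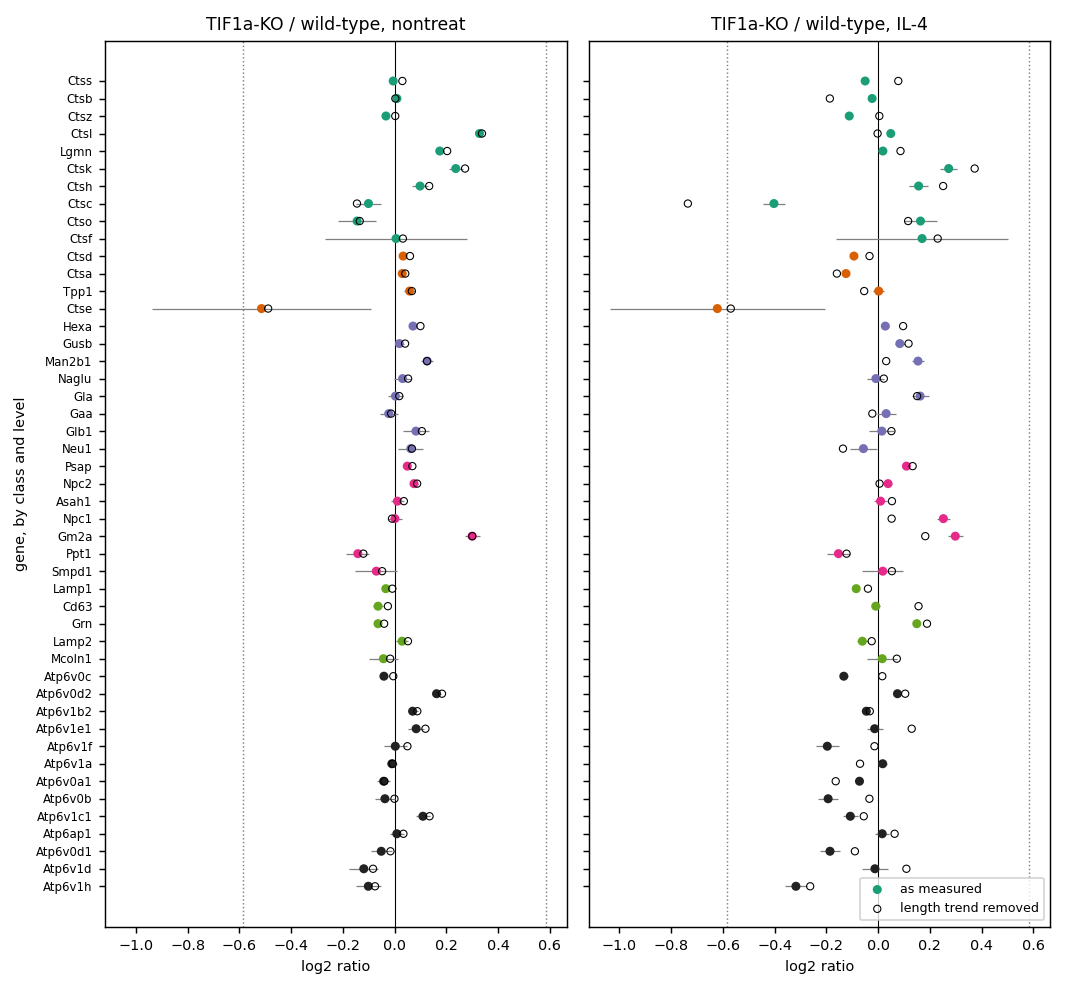
Log2 ratio of TIF1a-KO over wild-type (x axis) for each of the 47 genes (y axis, by class and mean level, coloured by class) in nontreat (left) and IL-4 (right). Filled points are as measured with bars of 1 standard error from counting, open points have the trend over transcript length removed, and dotted lines mark 1.5-fold. No filled point with more than 100 reads passes a dotted line, and the open point of Ctsc with IL-4 does, at -0.74.

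Genes outside the group that belong to the same pathway were counted by lists. Of 36 other lysosome genes, all listed, 5 rose and 1 fell with IL-4 in wild-type, and 5 rose and 0 fell in TIF1a-KO. Among abundant genes 12.5% were called in either direction in wild-type and 10.1% in TIF1a-KO. Over all genes tested, 4.91% were called higher and 7.88% lower in wild-type, and 5.29% and 4.03% in TIF1a-KO. These shares also stand beside the shorter lists below. Among the lysosome genes that rose in both genotypes were Acp5 (log2 ratios 1.17 and 0.94), the tartrate-resistant acid phosphatase, Pla2g15 (1.03 and 0.94), a lysosomal phospholipase, Laptm4a (0.81 and 0.72) and Slc17a5 (0.72 and 0.88), the sialic acid exporter. Laptm4b fell in wild-type (-0.61). Of 11 other pump genes 9 were listed and none was called with IL-4 in the pairs of libraries, while the additive edgeR fit, with no fold threshold, called Atp6v1g1, a stalk subunit, higher (log2 change 0.27, adjusted p = 0.0300). Of 9 cathepsin inhibitors 6 were listed. Cst3, the most abundant secreted inhibitor of cysteine cathepsins in the list, had log2 ratios of 0.31 and 0.29, and the level of Ctsl relative to it went from 0.775 to 1.17 in wild-type and from 0.959 to 1.22 in TIF1a-KO. Spint1 rose in both genotypes and Cst7 in wild-type, each at or below 1.4 FPKM.

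Of 6 genes that sort hydrolases to lysosomes, 0 rose and 1 fell with IL-4 in wild-type, and none was called in TIF1a-KO. The gene that fell was Sort1, the sorting receptor for several hydrolases and for prosaposin, at 20.1 (nontreat) and 12.2 FPKM (IL-4) in wild-type and 21.3 and 18.6 FPKM in TIF1a-KO. It was the single gene of this list called higher in TIF1a-KO with IL-4 (0.61), and both of its calls were lost after removal of the length trend. Of the 4 MiT/TFE factors Tfec rose in both genotypes, from 6.89 to 20.5 FPKM in wild-type and from 6.54 to 16.6 FPKM in TIF1a-KO. Mitf rose in TIF1a-KO (0.59) and had a ratio of 0.51 in wild-type, which was 0.71 and called after removal of the length trend. Tfeb had ratios of 0.43 and 0.32, and Tfe3 of -0.07 and 0.03. Of the 10 genes whose GTCACGTG sites are shown above, Lgmn was the single gene called with IL-4 in a pair of libraries. Beside it, 12.5% of abundant genes were called in wild-type and 10.1% in TIF1a-KO. The window at the outer start of Lgmn held no CACGTG. A relation between the sites and the IL-4 response was not tested. Of the other members called in a pair, Ctsl had the short form CACGTG in its window, and Atp6v0d2 and Atp6v1b2 had no window. Atp6v0a1 and Ctsk had none of the forms searched in theirs. The single window of Atp6v0a1 lies within the RefSeq span of the gene, upstream of an inner start. The outermost start of Atp6v0a1 was therefore not searched. Atp6v1a, called in the additive fit, had the form TCACGTG.

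Some members share exon bases with a neighbour in the GENCODE annotation, and the strand setting of the counting is not given in the sources used here. Ctsl shares 28.2% of its exon bases with Gm47123 on the opposite strand, and Ctsd 31.5% with Gm49369 on its own strand, neither of which was analysed here. Ctsa shares 13.5% with Pltp and Ctsb 16.3% with Fdft1, both on the opposite strand and listed at up to 216 and 84.1 FPKM. Reads from stretches shared with the opposite strand cannot be told apart without strand, and those from a stretch shared on the same strand cannot be told apart by strand at all.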

How the data were processed

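Each deposited table holds 1 library. The authors mapped reads to GRCm38 (mm10) with Bowtie and counted them with RSEM, versions not stated. The deposited expected counts are RSEM estimates that need not be whole (22.2% to 22.8% were not) and were rounded for every test here. The FPKM values, also from the authors, are the counts over transcript length and library total, and unlisted genes were set to 0. The deposited mean transcript length per gene was used for the length trend. Of 16403 gene IDs 16365 matched a RefSeq symbol and position (GRCm38.p6).

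The genes and lists were chosen with earlier results of these data known. Libraries were grouped by their labels, 1 per group. Pairs were compared by two-sided Fisher's exact tests with Benjamini-Hochberg adjustment over all genes with a read, and a call needed an adjusted p below 0.05 with a fold over 1.5, as in the study's methods. Ratios were taken of log2(FPKM + 0.1), so that folds of scarce genes come out too small. The 95% intervals and the standard errors come from counts plus 0.5 and cover counting error only, as does the floor of 3 reads, since reads without molecular identifiers are not independent molecules. The difference of responses was a z test on log2 shares of reads. The additive model of genotype and treatment used edgeR 4.0.16 (TMM, filterByExpr, quasi-likelihood), with DESeq2 1.42.0 and limma 3.58.1 as alternatives, in R 4.3.3, and the rest used Python 3.11.15 with scipy 1.17.1 and statsmodels 0.14.6. The length trend was a lowess curve (fraction 0.3) over genes of at least 200 bases and 1 FPKM.

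Genes given in all 4 libraries were the members called in any pair, and the highest 2 and lowest 1 of each class by mean FPKM. Any other was named after its values were seen. A gene among the other lysosome genes is not reported here by name. On simulated counts with 200 changed genes the pair test recovered 200 with 5 false calls of 15460. With a simulated length trend it recovered 200 with 1518 false calls of 15541, and 200 with 1 false call after removal of the trend. The additive fit recovered 200 with 8 false calls of 11740. Recovery was not broken down by the size of the change. Spread between mice was not measured in these data, so the simulations could not be matched to it. These counts therefore hold for the simulated data only and give no error rate for the calls reported here.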

Additional observations from a re-analysis of the deposited data

How the results depend on the processing

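Alternatives changed pseudocount (0.01 or 1), scaling (TMM or upper quartile), fold, filter on low values, length trend and test. Of the counts and medians recomputed, 62 kept within 1.5 times the count or close to the median, 3 became larger and 5 smaller. The median between genotypes with IL-4 changed sign near 0, from 0.00 to -0.02 with TMM and -0.04 with upper-quartile scaling. With a fold of 2, or with edgeR's exact test at a preset coefficient of biological variation (0.2), 1 member was called with IL-4 in wild-type and 1 in TIF1a-KO. With the length trend removed 1 member, Ctsc, was called between genotypes with IL-4. In the additive fit over all genes with a read, 8 members were called for IL-4, and 19 with the trend as an offset (13 as reported). For genotype the fit called 3 with the trend as an offset (Ctsc -0.45, Ctsk 0.32 and Gm2a 0.24), and limma called 1 (Gm2a 0.30). The share of all genes called was not counted under these alternatives. Single ratios of called members were recomputed for pseudocount, scaling and length trend, but not for the fold of 2 or the preset variation. Of these ratios 46 kept their call and 4 fell under the fold threshold. The 4 were Ctsk in wild-type with TMM or upper-quartile scaling (-0.58 in both), and Lgmn in TIF1a-KO with upper-quartile scaling (0.58) or without the length trend (0.55).

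No paired analysis was possible because each group is 1 library, and no replicate was left out for the same reason. With 1 library per group no spread between mice was measured, and only Ctse and Ctsf were limited by depth.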
